A study of Equus caballus with 6 samples.

Results

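Small RNAs from testes of the Mongolian horse were sequenced in 6 libraries, 3 from mature testis and 3 from immature testis, and reads were deposited as counts per distinct sequence. The labels give the breed and the tissue for both groups, and no age, stage of spermatogenesis or animal for any library. The subject here is the end variants of 11 abundant PIWI-interacting RNAs (piRNAs) of mature testis. Each listed sequence was taken as the head of a family, and a family holds every sequence with the same first 20 nt. The 11 families held 689 of the 4936717 sequences in the table, the 11 listed sequences and 678 others. 10 of the listed sequences are those with the highest mean level among sequences called higher in mature testis, so their levels in the 2 groups are described and not tested. The next sequence on that ranking, uniq_5011449, averaged 491 ± 107 CPM (reads scaled to the total of each library in the table) in mature testis and 27.4 ± 23.1 CPM in immature testis. The last one included, uniq_2695404, averaged 554 ± 107 CPM in mature testis and 24.6 ± 18.4 CPM in immature testis (SD, n = 3 each). The 11th listed sequence, uniq_2089930, was the second most abundant sequence of mature testis. The table measures small RNA only, so markers of testicular cell types were not available to check the labels. No label says that replicates came from separate animals, so the spread between libraries may be technical.

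piRNAs are small RNAs of germ cells that guide PIWI proteins, and in mammalian testis many are made in spermatocytes from long single-stranded transcripts. The 5′ end is set by endonuclease cleavage and usually carries uridine, while the 3′ end is formed by trimming up to the edge of the bound PIWI protein and is then 2′-O-methylated. In mouse, PIWIL2 and PIWIL1 hold piRNAs of different length, and unmethylated 3′ ends can lose bases or gain untemplated ones. Families with a shared 5′ end therefore show how exact the 3′ end of each piRNA is.

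The 11 listed sequences are shown because every family below is named after one of them. They are written 5′ to 3′ with T for uridine, and capitals mark the first 20 nt that define the family.
uniq_5153807: TAATAGAGACTGTTGAAGGAtgaactcaac
uniq_1435444: TATGACTAAAACTGACTGGAgggctggtt
uniq_5212563: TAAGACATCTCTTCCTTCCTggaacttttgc
uniq_2919082: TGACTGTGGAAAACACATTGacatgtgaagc
uniq_5218759: TGTGAAATGAATGAATGAATgaatcgatc
uniq_4921673: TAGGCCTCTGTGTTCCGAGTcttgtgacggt
uniq_4183634: TAAATACAGACTGTAGACTCccagcgctgt
uniq_3572800: TAAGATTCTAAATTGAACTTtgatgacggg
uniq_3673441: TAGCTTAAGATATACTGACTggaagccagc
uniq_2695404: TACTTCTGACATGCCAAGTCtgagcaaggc
uniq_2089930: CATTTATTGAGTGTCTACTGtgtgcttc

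The listed sequences were 28 nt (1 sequence), 29 nt (2), 30 nt (5) or 31 nt (3) long. T was the first base in 10 of 11, against 89.8% ± 0.611 of all reads in mature testis and 75.5% ± 1.91 in immature testis (SD, n = 3 each). uniq_2089930 was the exception with C, a first base of 4.88% ± 0.0375 of reads in mature testis. 8 of 11 began with TA, as did 25.1% ± 0.517 of all reads in mature testis. A stood at position 10 in 7 of 11, among them uniq_2089930, and in 30.4% ± 0.620 of reads in mature testis. The 3′ terminal base was C in 7, T in 3, G in 1 and A in 0 listed sequences. Among all 28 to 31 nt reads of mature testis, 30.8% ended in C, 34.9% in T, 19.1% in A and 15.2% in G. 5 of the 11 held the motif GACTG, searched on the sequence strand only. The motif lies within stretches that listed sequences share, such as ACTGACTGGA, so no enrichment is read from its count. It was held by 12.1% ± 0.373 of reads in mature testis and by 9.94% of distinct sequences in the table. Listed sequences were picked by level, and no test of these features was made.

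Together the families took 2.07, 2.21 and 2.30% of the reads in the 3 mature libraries, against 0.0586, 0.216 and 0.127% in the 3 immature libraries. The summed level was 21951 ± 1153 CPM in mature testis and 1339 ± 788 CPM in immature testis (SD, n = 3 each), a ratio of 16.4. The listed sequences alone gave a ratio of 18.8 and the 678 others 12.9, and without immature replicate 2 these were 23.99 and 22.9. Since the table is scaled to its own totals and comes from whole testis, fewer cells that make these piRNAs and less piRNA per cell cannot be told apart. With TMM factors computed on single sequences, which scale libraries to the bulk of the sequences, the summed ratio was 2.80.

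The family of uniq_2089930 was the most abundant. It reached 7165, 8092 and 6431 CPM in the mature libraries, against 159.9, 1135 and 485 CPM in the immature ones. Its mean was 7229.5 ± 833 CPM in mature testis and 593 ± 496 CPM in immature testis, a ratio of 12.2. This was the lowest of the 11 families, but without immature replicate 2 it was 22.4 and uniq_5153807 was lowest. The lowest mature library stood 5.67-fold above the highest immature one, and the immature libraries differed from each other more than the mature ones did. The family of uniq_5153807 had a ratio of 26.1, with 2702, 2014 and 3309 CPM in mature testis and 60.1, 42.6 and 205 CPM in immature testis. Without immature replicate 3 that ratio was 52.1, the highest of the families, and without immature replicate 2 it was 20.2, the lowest. The order of the families by ratio therefore rests on single immature libraries. The family of uniq_5218759 reached 928, 840.3 and 1512 CPM in mature testis, against 55.7, 31.5 and 39.0 CPM in immature testis. Its ratio was 25.99, and it had the widest gap, since its lowest mature library was 15.1-fold above its highest immature one. The family of uniq_1435444 held 2417, 3097 and 3336 CPM in mature testis and 85.4, 230.0 and 204 CPM in immature testis, a ratio of 17.04.

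The other 7 families moved in the same direction. Their mature libraries ranged between 708 CPM (uniq_3673441) and 1983 CPM (uniq_4921673), and their immature libraries between 7.96 CPM (uniq_3673441) and 160.2 CPM (uniq_4921673). The ratios were 16.7 for uniq_3572800, 18.02 for uniq_2695404, 18.2 for uniq_2919082, 19.01 for uniq_4921673, 19.03 for uniq_5212563, 20.3 for uniq_4183634 and 20.8 for uniq_3673441. Beside these, 1627 5′ ends with at least 1000 reads in mature testis and a defined ratio had a median ratio of 12.0. The 12.2 of uniq_2089930 was near that median. In all 11 families every mature library lay above every immature library. The share of all 5′ ends that separate like this was not counted, and the rule had used this contrast, so nothing is read from it. Immature replicate 2 carried the highest level in 9 families, and leaving it out changed 6 ratios more than 1.5-fold: 38.7 for uniq_3673441, 33.1 for uniq_2695404, 31.4 for uniq_5212563, 30.4 for uniq_4921673, 28.9 for uniq_3572800 and 22.4 for uniq_2089930.

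The fit across the whole table sets these levels against all other sequences. With edgeR's quasi-likelihood test, TMM factors and a Benjamini-Hochberg adjusted p under 0.05, 8.41% of 31788 tested sequences were called higher in mature testis. 10 of the 11 listed sequences were among them, uniq_2089930 was not, and the rule had used this contrast. Of the 678 other members 131 passed the filter on low counts and 28 were called higher in mature testis. 0 were called higher in immature testis, where 21.9% of all tested sequences were, and the count was also 0 at an unadjusted p under 0.05 in edgeR and with DESeq2. When library totals set the scale, all 131 were called higher in mature testis, as were 77.7% of all tested sequences. Summed over 5′ ends, all 11 families were called with both scalings, where 15.8% of 33902 tested 5′ ends were called with TMM factors and 64.4% with library totals. The log2 fold changes of the families ran between 1.48 (uniq_2089930) and 2.51 (uniq_5153807) with TMM factors, beside a median of 0.50 over all tested 5′ ends. These TMM factors were computed on 5′ ends and differ from those behind the summed ratio of the families. With library totals the log2 fold changes ran between 3.61 and 4.71, beside a median of 2.63. Because members entered through this contrast, nothing is read from these calls.

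Each family had 1 leading sequence, and the listed sequence carried the read-majority base at every position in all 11. The listed sequence made up 95.3% ± 0.579 of family reads in mature testis for uniq_5218759 and 50.6% ± 3.31 for uniq_4921673, the ends of the range (SD, n = 3). Over all families in mature testis, 68.3% ± 4.74 of reads were the listed sequence and 14.5% ± 2.02 were the same sequence cut or extended at its 3′ end. Another 13.7% ± 1.86 differed in the last base alone, 3.29% ± 0.874 in 1 inner base after position 20 and 0.214% ± 0.0784 in 2 or more bases. In immature testis the same 5 classes took 63.4% ± 9.50, 19.2% ± 4.14, 13.6% ± 3.87, 3.60% ± 1.60 and 0.195% ± 0.139, and each class overlapped between the groups.

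Length was sharply set in 6 families. In mature testis 99.0% ± 0.340 of the reads of uniq_5218759 were 29 nt long, and no sequence of 30 nt or more was found. The share at the listed length was 98.5% ± 0.147 for uniq_4183634 at 30 nt, 97.2% ± 0.169 for uniq_2919082 at 31 nt, 94.9% ± 0.926 for uniq_5153807 at 30 nt, 94.2% ± 0.866 for uniq_3673441 at 30 nt and 93.4% ± 0.823 for uniq_5212563 at 31 nt. In uniq_2919082 the minor lengths were separated from the main one. It had 287 and 119 reads of 26 and 27 nt in mature testis, 1 each of 28 and 29 nt and 0 of 30 nt, beside 4605, 4381 and 5464 reads of 31 nt in the 3 mature libraries. The sequences with the most reads at 26, 27 and 31 nt are shown for this gap, with the last base in capitals.
uniq_4341404: tgactgtggaaaacacattgacatgT
uniq_3553224: tgactgtggaaaacacattgacatgtG
uniq_2919082: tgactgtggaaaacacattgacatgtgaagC
In uniq_5212563 the lengths next to the main one were also rare: 3.29% ± 0.714 of the reads in mature testis were 29 nt and 0.655% ± 0.0660 were 30 nt. In uniq_4183634, 27 nt held 0.628% ± 0.234 and 28 nt a single read in mature testis.

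The other 5 families were spread over neighbouring lengths. The listed length took 84.1% ± 1.05 of the reads of uniq_3572800 in mature testis, 76.5% ± 5.54 of uniq_2695404, 70.9% ± 3.50 of uniq_1435444, 69.0% ± 5.71 of uniq_2089930 and 68.8% ± 5.48 of uniq_4921673. uniq_1435444 and uniq_2695404 extended mainly by 1 nt, with 19.1% ± 3.61 at 30 nt and 15.0% ± 5.04 at 31 nt. uniq_4921673 was mainly shortened, with 10.5% ± 1.19 at 30 nt and 14.9% ± 4.55 at 29 nt. uniq_3572800 varied both ways, with 5.01% ± 0.550 at 29 nt and 8.28% ± 1.57 at 31 nt, as did uniq_2089930, with 9.86% ± 0.180 at 27 nt and 15.0% ± 3.94 at 29 nt. The leading sequence of each length is shown for uniq_1435444, whose longest forms end in a run of T, with the last base in capitals.
uniq_4366686: tatgactaaaactgactggagggcC
uniq_1422864: tatgactaaaactgactggagggctG
uniq_1448046: tatgactaaaactgactggagggctgG
uniq_1407333: tatgactaaaactgactggagggctggT
uniq_1435444: tatgactaaaactgactggagggctggtT
uniq_3355230: tatgactaaaactgactggagggctggttT
uniq_3492032: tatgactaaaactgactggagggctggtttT
uniq_5030481: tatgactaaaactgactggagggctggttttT
For uniq_2089930 the 5 leading forms of 26 to 30 nt are shown in the same way.
uniq_2087960: catttattgagtgtctactgtgtgcT
uniq_2094909: catttattgagtgtctactgtgtgctT
uniq_2089930: catttattgagtgtctactgtgtgcttC
uniq_2060628: catttattgagtgtctactgtgtgcttcT
uniq_5025633: catttattgagtgtctactgtgtgcttctC
Among 1629 5′ ends with at least 1000 reads in mature testis, the most frequent length took a median of 57.7% of reads, with quartiles of 43.8 and 72.4%. The families lay between the 69.3rd percentile for uniq_2089930 and the 99.2nd percentile for uniq_5218759, and the choice by level of a single sequence favours ends with 1 main length.

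The most abundant members that were not listed were length variants of the 2 families led by uniq_2089930 and uniq_1435444. uniq_2060628, the listed sequence of 28 nt with 1 more T, had 540.4, 1025 and 640.5 CPM in the mature libraries, against 16.6, 231 and 52.0 CPM in the immature ones, a ratio of 7.36 that was 21.4 without immature replicate 2. uniq_2094909, 1 nt shorter than the same listed sequence, had 529.5, 578 and 481 CPM in mature testis, against 15.2, 71.6 and 45.1 CPM in immature testis. uniq_3355230, uniq_1435444 with 1 more T, had 301, 565 and 512 CPM in mature testis, against 16.6, 35.4 and 19.1 CPM in immature testis, a ratio of 19.4 that was 25.7 without immature replicate 2. Each of the 3 was higher in every mature library than in any immature one, and the share of all sequences that separate like this was not counted.

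Reads shorter than the listed length were a smaller share in mature testis. They made up 9.30, 9.06 and 8.88% of family reads in the mature libraries, against 10.2, 13.1 and 13.3% in the immature ones. Summed over the families, the groups thus did not overlap. uniq_2089930 gave 221, 2664 and 709 of the 810, 5066 and 1860 immature family reads, and without it the groups overlapped. Reads of 25 to 27 nt took 5.34% ± 0.455 of family reads in mature testis and 8.23% ± 1.04 in immature testis. Over the whole table the groups differed more at these lengths, with 10.6% ± 0.462 of reads at 27 nt in mature testis and 26.4% ± 1.58 in immature testis. The means of single families had the same order except in uniq_5218759. There 25 to 27 nt took 0.859% ± 0.227 of reads in mature testis and 0.450% ± 0.780 in immature testis. uniq_4183634 had 1.22, 0.942 and 1.29% of its reads at 25 to 27 nt in mature testis, against 8.00, 5.30 and 6.10% in immature testis, where the 3 libraries held 25, 132 and 82 family reads. The share shorter than the listed length was lower in every mature library than in every immature one in 6 families, uniq_1435444, uniq_5212563, uniq_4183634, uniq_3572800, uniq_2695404 and uniq_2089930. In the other 5 families the groups overlapped, and in uniq_5218759 and uniq_3673441 the mean share was higher in mature testis. How many other 5′ ends separate in this way was not counted, so the 6 families are not read as particular. The 95% Wilson bounds of single-library length shares lay at most 1.47 percentage points from the share in mature testis and 25.9 points in immature testis, and they cover counting error only.

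Reads longer than the listed length, summed over the families, were most frequent in replicate 2 of both groups. They made up 8.30, 14.8 and 9.64% of family reads in the mature libraries and 10.5, 21.8 and 11.7% in the immature ones. Among the mature libraries replicate 2 was highest in the 10 families with such reads, on 1 read in uniq_2919082 and 2 reads in uniq_5212563. Among the immature libraries replicate 2 was highest in 3 of 7 families with such reads, uniq_3673441, uniq_2695404 and uniq_2089930, and replicates 1 and 3 in 2 each. uniq_2089930 gave 866 of the 1105 longer reads of immature replicate 2. uniq_2089930 had 23.5% of its 28 and 29 nt reads at 29 nt in mature replicate 2, against 13.4 and 17.0% in mature replicates 1 and 3. In immature testis that share was 35.5% in replicate 2, against 17.9 and 21.1% in replicates 1 and 3. Mean length was 29.3 ± 0.0474 nt in mature testis and 29.1 ± 0.226 nt in immature testis, and the libraries overlapped. The share at the listed length, 80.0% ± 3.39 in mature testis and 73.1% ± 7.26 in immature testis, overlapped too.

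In 8 families the last base varied. Sequences of the listed length occurred with another base at the 3′ end only, and in mature testis these took between 8.40% ± 1.00 of reads (uniq_2089930) and 29.4% ± 3.75 (uniq_2695404), counted beside the listed sequence. In each of the 8 the most frequent replacement was a transition, T for C, C for T or A for G. T replaced C in 19.9% ± 2.12 of the reads of uniq_2695404, 17.2% ± 2.34 of uniq_3673441, 8.07% ± 0.917 of uniq_2089930 and 7.71% ± 1.13 of uniq_5153807 in mature testis. C replaced T in 11.1% ± 0.984 of uniq_4183634, 10.7% ± 1.04 of uniq_4921673 and 9.46% ± 0.925 of uniq_1435444. A replaced G in 14.01% ± 1.39 of uniq_3572800. 6 of the 10 most abundant last-base variants are shown, with the changed base in capitals.
uniq_4457384: catttattgagtgtctactgtgtgcttT
uniq_4156172: tatgactaaaactgactggagggctggtC
uniq_5153796: taatagagactgttgaaggatgaactcaaT
uniq_3905411: tacttctgacatgccaagtctgagcaaggT
uniq_3572834: taagattctaaattgaactttgatgacggA
uniq_4183614: taaatacagactgtagactcccagcgctgC
The first, uniq_4457384, had 1523, 1775 and 1662 reads in the mature libraries, against 7, 137 and 30 in the immature ones. Its counts were high in all 3 mature libraries and low in all 3 immature ones, as for its listed sequence. Over all families last-base variants took 11.7% ± 1.55 of these reads in mature testis and 10.3% ± 2.93 in immature testis, with overlap. In uniq_5153807 the groups did not overlap, with 8.99, 11.3 and 8.39% in mature testis and 3.95, 0 and 5.73% in immature testis, where the shares rest on 76, 1 and 262 reads.

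Another base was more frequent at the end of a read than at the same position inside longer reads. At 39 combinations of family and position with at least 100 mature reads both ending there and reading past it, a median of 19.5% of the reads that ended there carried another base than the family majority. Among reads that continued past the same position the median was 0.411%. The share was higher in the ending reads at 34 of the 39, and at 33 the ending share of every mature library was above the longer-read share of all 3, position 26 of uniq_5153807 being the one where they overlapped. For uniq_1435444, 18.1% of 26651 reads ending at position 29 had another base than T there, against 18 of 9003 longer reads. For uniq_2089930, 21.5% of 9035 reads ending at position 27 had another base, against 1.52% of 79915 longer reads. For uniq_5153807, 8.60% of 32659 reads ending at position 30 had another base, against 0 of 682 longer reads. The 5 exceptions were position 31 of uniq_1435444, positions 25 and 30 of uniq_5212563, and position 30 of uniq_4921673 and of uniq_2089930. At 3 of them, those of uniq_5212563 and uniq_4921673, no ending read had another base. At position 30 of uniq_2089930 the majority base C was set by the ending reads. There 44.9% of 2764 ending reads had another base, against 302 of 310 longer reads. Among the leading sequences of the 1629 abundant 5′ ends, 1525 had a last-base variant, and it took a median of 22.4% of reads, with quartiles of 16.04 and 31.2%. The 8 families lay between the 5.38th percentile (uniq_2089930) and the 68.9th percentile (uniq_2695404) of these. Base qualities are not part of the table, and the source of the other bases was not tested.

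uniq_5212563, uniq_2919082 and uniq_5218759 had no sequence of the listed length with another last base, although uniq_5212563 alone had 4854, 4885 and 5547 reads in the mature libraries. They had no variant of the first base, which was also absent in uniq_4183634 and uniq_3572800 and in 769 (47.2%) of 1629 abundant 5′ ends. Of 1629 abundant 5′ ends 104 (6.38%) had a leading sequence without any last-base variant. Inner variants of these 3 families were present, 17 of 30 possible single changes between position 21 and the next to last base for uniq_5212563, 16 of 30 for uniq_2919082 and 21 of 24 for uniq_5218759. In uniq_5153807, by comparison, 86 of 90 possible single changes over the whole length were found, and in uniq_3572800 35 of 90. The listed sequence without its last base was also no entry of its own in uniq_5212563, uniq_2919082, uniq_5218759 and uniq_4183634. The same held for the leading sequence of 291 (17.9%) of 1629 abundant 5′ ends. The table holds sequences called as piRNAs by the authors, and no source used here gives the calling criteria. Their part in these gaps, including the gap in the lengths of uniq_2919082, was not tested.

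Bases added after the listed 3′ end were compared with the base that follows in reads from other 5′ starts over the same stretch. The 3 families without last-base variants had no consensus form 1 nt longer. In 5 families the most frequent added base was also the most frequent following one. In uniq_2089930 T made up 68.2% of 13622 reads of the consensus plus 1 base in mature testis, and 5837 of 5888 reads from other starts had T there. The same held for T in uniq_2695404, 69.6% of 1867 reads beside 1510 of 1535, for A in uniq_3673441, 65.1% of 169 beside 212 of 223, and for C in uniq_5153807, 52.3% of 669 beside 4639 of 5051. In uniq_4921673 all 426 added bases were G, as were 300 of 306 following ones. In the other 3 families they differed. uniq_1435444 added T in 81.0% of 7231 reads, while reads from other starts had A in 91 and T in 18 of 159. uniq_3572800 added T in 53.0% of 1113 reads, while G followed in 215 of 223. uniq_4183634 added A in 51.5% of 33 reads, while G followed in 725 of 730. Counts from other starts are over all 6 libraries and rest on 16 matching bases, so they may include other loci.

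In the family of uniq_5153807 an inner variant, uniq_4729505, was found almost only in replicate 2 of both groups. It carries the substitution T26G, counted from 1 at the 5′ end. It was singled out after its values were seen. The pair is shown with position 26 in capitals.
uniq_4729505: taatagagactgttgaaggatgaacGcaac
uniq_5153807: taatagagactgttgaaggatgaacTcaac
uniq_4729505 had 3, 1053 and 0 reads in mature replicates 1, 2 and 3, against 0, 72 and 0 reads in the immature replicates. Over all lengths, reads with G at position 26 made up 14.5% of family reads that reach it in mature replicate 2 (95% Wilson interval 13.8 to 15.3%), against 0.0537% and 0.0133% in mature replicates 1 and 3. In immature replicate 2 they were 98 of 99 reads (99.0%, interval 94.5 to 99.8%), and 0 in immature replicates 1 and 3, which held 81 and 298 reads with T there. The listed sequence itself had 1 read in immature replicate 2, beside 73 and 247 in the other 2. The G form was found at 6 lengths, 26 to 31 nt, with 1 sequence at each. At 30 nt in mature replicate 2, all 1053 G-carrying reads ended in C, while the T-carrying reads ended in C in 88.7%, T in 9.01% and A in 2.02%. The inner variant with the next most reads, T28C of uniq_1435444, took 1.47, 1.43 and 1.46% of family reads in the mature libraries. Without uniq_4729505 the share of family reads with 1 inner change was 2.91% ± 0.216 in mature testis and 3.14% ± 0.884 in immature testis. The source of the G form was not tested.

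Reads found over the same stretch from another 5′ end were fewer than reads from the family start in every family and library. Among reads that hold 16 bases of a family's first 20 nt, 7.57% ± 1.10 began elsewhere in mature testis and 10.6% ± 1.69 in immature testis. Summed over the families the groups did not overlap, but without uniq_2089930 they did. A match of 16 bases reaches starts at most 4 nt downstream, so later starts were not counted. With 14 bases the summed shares were 10.2 and 19.9%, and with 18 bases 3.19 and 5.32%, so the level depends on the length matched. The families differed widely. In uniq_5212563 0.0460% ± 0.0242 began elsewhere in mature testis, in uniq_5153807 16.3% ± 1.31 and in uniq_2919082 31.9% ± 3.58. uniq_5153807 had 1 main alternative start, 3 nt downstream, with 2441, 1432 and 3016 reads in mature testis and 12, 29 and 91 in immature testis. uniq_2919082 had 4 upstream starts, 13, 12, 10 and 9 nt before the listed one, with 1112, 2215, 727 and 3159 reads over all libraries. In 4 families the share from other starts was lower in every mature library than in every immature one. These were uniq_5218759, uniq_4183634, uniq_2695404 and uniq_2089930. The share was higher in uniq_3673441, where the immature libraries held 0, 2 and 0 reads from other starts. How many other 5′ ends separate in this way was not counted. In uniq_5218759 the share was 5.48, 4.47 and 5.37% in mature testis, against 10.2, 37.0 and 24.0% in immature testis, where it rests on 9, 44 and 18 reads. Its most frequent other starts, at -5, -1 and 3 nt, are spaced by the 4 nt repeat unit, so the start is ambiguous in this family. uniq_2089930 had starts 1, 2 and 4 nt downstream with 1685, 1525 and 1253 reads over all libraries.

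Sequence from the opposite strand was rare. In mature testis 13 reads matched uniq_4921673 in reverse complement over 16 bases and 8 matched uniq_5218759, and no mature read matched the other 9 families. The ping-pong cycle, in which 1 piRNA guides the cut that makes another, leaves partners whose first 10 nt are complementary. uniq_2089930, the family with C at position 1 and A at position 10, had 3332 reads whose first 10 nt complement its own. These were 1090, 1088 and 1017 reads in mature testis, against 11, 90 and 36 in immature testis. The 3 most abundant are shown with the complementary stretch in capitals. They are not in the families and were picked after their values were seen.
uniq_1175555: TCAATAAATGctgatttgtgagtgaatg
uniq_1181400: TCAATAAATGctgatttgtgagtgaat
uniq_3153171: TCAATAAATGcttgccggattggattgtt
uniq_5218759 followed with 227 such reads, and the other 9 families had between 1 and 73. Complements shifted by 1 to 6 nt along uniq_2089930 gave 0 to 27 reads, but none of these begins with T, which limits the comparison. A shifted complement of uniq_5218759 that begins with T gave 6125 reads, and this family holds a tandem repeat of 4 AATG units. With 10 letters compared and no genome position, pairs from the same locus and chance matches cannot be told apart.

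The families were otherwise distinct in sequence. The longest stretch shared by 2 listed sequences was ACTGACTGGA in uniq_1435444 and uniq_3673441, which 1065 sequences of the table held (0.0216%). Reads with it made up 0.399% ± 0.0507 of all reads in mature testis and 0.0360% ± 0.00894 in immature testis, uniq_1435444 and uniq_3673441 included. The families of these 2 gave most of those reads, with means of 2950 and 790 CPM in mature testis and 173 and 38.0 CPM in immature testis. Both were chosen by level, so the difference is not read as one of the stretch. All other pairs of listed sequences shared at most 7 bases in a row.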

How the data were processed

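Small RNA libraries, 3 of mature and 3 of immature testis, were analysed. Per the labels' protocols, each began with 3 µg of total RNA, adapters were ligated to both ends and a gel slice of 140 to 160 bp was kept. The authors deposited raw read counts per distinct sequence of 25 to 32 nt, not normalized. The aligner Bowtie appears, per the submitters' processing notes. Neither the build nor the piRNA calling criteria are given in the sources used, and genome positions were not used here. Column totals, which are totals of called piRNAs and not sequencing depth, were 4139452, 4032042 and 4550970 in mature testis and 1382083, 2347351 and 1462339 in immature testis. A count of 0 allows 3 reads, or 0.659 to 0.744 CPM in mature and 1.28 to 2.17 CPM in immature libraries. Reads carry no molecular identifiers, so these limits and all intervals reflect counting error alone.

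CPM scale the deposited counts to the column total and were computed in Python 3.11.15 with pandas 2.3.3. The majority base at each position was taken over all reads of a family. All sequences, and sums over equal first 20 nt, were fitted with edgeR 4.0.16 (R 4.3.3, quasi-likelihood, TMM factors, filterByExpr, Benjamini-Hochberg adjusted p under 0.05), checked on simulated data. Alternatives were library totals, upper quartile factors, DESeq2 1.42.0, other filters, the replicate block and leaving out each library. Named sequences are the listed ones, the leading sequence of each length in a family, and the 10 most abundant other members and last-base variants. Exceptions are named in the text. Members and lists were chosen with earlier results of these data known. All 6 sample columns were used, and 0 others were present.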

Additional observations from a re-analysis of the deposited data

How the results depend on the processing

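The summed ratio of the families, mature over immature, was 16.4 and lay between 12.8 and 23.6 when each library was left out. It was 2.80 with TMM factors computed on single sequences. The difference in mean length, mature minus immature, was 0.171 nt and lay between 0.0973 and 0.301 nt when each library was left out. The share at the listed length differed by 6.88 percentage points, between 2.87 and 9.95 points. The share of reads with another base than the majority after position 20 differed by -0.166 points, between -2.94 and 2.58 points. It differed by 24.1 points when each distinct sequence was counted once and by 7.24 points without the listed sequences. These 4 values otherwise moved by less than 1 SD.

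Sequences called higher in mature testis numbered 2672, and 24713 with library totals, 13822 with upper quartile factors, 4033 with DESeq2, 430 at 10 CPM in 3 libraries and 28866 with no filter beyond 6 reads. Leaving out each library gave 903 (without immature replicate 3) to 3936, with 1208 without immature replicate 1. Sequences called higher in immature testis numbered 6976, and 6462 with library totals, 1782 at 10 CPM in 3 libraries and 57340 with no filter. 5′ ends called higher in mature testis numbered 5370, and 21820 with library totals, 18813 with upper quartile factors, 8886 with DESeq2, 963 at 10 CPM and 48686 with no filter. Leaving out each library gave 2068 (without immature replicate 3) to 10828 (without immature replicate 2). The filter at 10 CPM tested 9322 sequences and no filter beyond 6 reads tested 294186, against 31788 in the main fit. For 5′ ends these numbers were 12345 and 220577, against 33902. The cause of the other shifts was not tested.

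No label says that replicate numbers pair the libraries, and deviations of same-numbered libraries correlated between -0.08 and 0.02. uniq_4729505 was nevertheless found almost only in replicate 2 of both groups, and whether those libraries share a source was not tested. With the replicate block 693 sequences and 2436 5′ ends were called higher in mature testis. Depth limits the immature libraries, where families held 11 to 2664 reads. Searches with 14 and 18 bases, chosen after seeing the data, gave 10.2 and 3.19% of reads from other starts in mature testis and 19.9 and 5.32% in immature testis.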
